A study of Mus musculus with 48 samples.

Results

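The transcripts of 10 genes of the endothelium, the cell layer that lines blood vessels, were followed through the lungs of mice given welding fume. The genes were Kank3, Hspa12b, Klf2, Klf4, Npr3, Pecam1, Cdh5, Tie1, Tek and Car4, and all probes annotated to these symbols were taken, 12 of 24613 probes and 10 of 15967 named genes. Klf4 had 3 probes and each other gene had 1. Every probe was detected on all 24 arrays of both time points, except that 1 Klf4 probe was detected on 23 of 24 arrays at 4 weeks, and all 10 genes passed the detection filter at both times.

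The samples were whole lungs of exsanguinated male mice of 2 inbred strains, bought at 4 weeks of age, A/J and C57BL/6J (B6). Each strain had 3 exposure groups, gas metal arc-mild steel fume (GMA-MS, rich in iron and manganese), gas metal arc-stainless steel fume (GMA-SS, which also carries chromium and nickel) and the PBS vehicle (sham). Fume was given 4 times by pharyngeal aspiration at 5 mg/kg a dose, and lungs were taken 4 or 16 weeks after the last dose, with 4 mice in each of 12 groups and 48 arrays in all. Each of 8 beadchips carried 6 arrays, 1 from each group of a time point, each group had the same position on every beadchip, so that position and group cannot be told apart, and a fresh fume suspension, shared by the strains, was made for each time point. The 2 time points were on different beadchips and were normalized apart, so no level was set against the other time.

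Endothelial cells keep blood apart from air and tissue and pass gas, fluid and leukocytes between them. Pecam1 and Cdh5 (VE-cadherin) are adhesion proteins of the junctions between these cells, and Tie1 and Tek (Tie2) are receptors of the angiopoietin pathway, which keeps vessels quiescent. Klf2 and Klf4 are transcription factors that blood flow switches on in endothelium, where they favour an anti-inflammatory state. Npr3 is the clearance receptor for natriuretic peptides, Car4 is a carbonic anhydrase held on the surface of lung capillaries, Kank3 is a scaffold protein of the cytoskeleton and Hspa12b is a distant relative of the Hsp70 chaperones made mainly in endothelium. Most of these genes are also transcribed in some other cells, such as Klf2 and Klf4 in leukocytes and epithelium and Pecam1 in platelets.

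A list of 48 other endothelial markers was set beside the 10 genes, and 38 of these passed the detection filter. The mean log2 level per lung of these 38 lay between 12.19 and 12.36 in A/J sham and between 12.35 and 12.39 in B6 sham lungs at 4 weeks. At 16 weeks it lay between 11.84 and 11.97 in A/J sham and between 11.87 and 11.94 in B6 sham lungs. As the mean holds only markers that passed the filter, it is no test of the label. A single library stood apart. At 16 weeks the 3 detected of 14 stomach and intestine markers had their highest mean, 13.80, in A/J sham replicate 4. The lowest A/J sham lung was at 8.78, the A/J sham group mean was 10.09, and B6 sham lungs lay at 9.61 to 9.77. The 16-week strain results are therefore also given without A/J sham replicate 4. The 9 detected markers of stratified squamous epithelium also varied widely between lungs at 4 weeks, with means of 7.65 to 11.62 in A/J sham and 7.75 to 11.29 in B6 sham lungs. All levels below are background corrected, quantile normalized log2 intensities, in which 1 unit is a doubling, and fold changes carry the standard error of the linear model fitted with limma to the 24 lungs of a time point. A gene was called at a Benjamini-Hochberg adjusted p under 0.05 over the 8687 genes tested at 4 weeks or the 8710 tested at 16 weeks. In whole lung RNA, fewer cells of a type and less RNA per cell cannot be told apart.

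At baseline, the probes for Npr3 and Car4 gave a higher signal in A/J than in B6 sham lungs at both time points, and those for Pecam1, Tie1 and Tek did so at 16 weeks. Each of these 5 genes was read by 1 probe. Sequence differences between the strains under the probes were not examined, for these or for any other gene or list. Of the 10 genes, 2 were called at 4 weeks, where 18.9% of all genes tested were called between the strains, and 5 were called at 16 weeks, where 27.7% were. All of these were higher in A/J. Without A/J sham replicate 4, 4 of the 5 were called at 16 weeks, with Npr3 at an adjusted p of 0.00108 in limma, Tie1 at 0.0203, Tek at 0.0212 and Car4 at 0.0175. The median log2 difference of the 10 genes was 0.12 at 4 weeks and 0.22 at 16 weeks, against 0.03 and 0.022 over all genes.

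Npr3, at chr15:11839896-11907837 of GRCm38.p6, takes natriuretic peptides out of circulation by internalising them. At 4 weeks its levels were 9.48, 9.80, 9.78 and 9.37 in A/J sham lungs and 9.02, 8.67, 8.88 and 8.73 in B6 sham lungs. Every A/J sham lung was above every B6 sham lung. The difference was 0.78 ± 0.19 (SE, n = 4 per group), or 1.72-fold, with an adjusted p of 0.00544 in limma. At 16 weeks the levels were 9.87, 10.57, 9.85 and 10.38 in A/J sham lungs and 8.89, 9.39, 8.73 and 8.44 in B6 sham lungs. The groups were again apart, with a difference of 1.3 ± 0.24, or 2.47-fold (adjusted p = 0.000196 in limma). Markers of fat, a tissue that also makes Npr3, were at 10.19 to 11.26 in A/J sham lungs and 8.82 to 9.09 in B6 sham lungs at 4 weeks (mean of 4 detected of 9) and overlapped at 16 weeks, at 9.16 to 9.72 and 8.80 to 9.52 in A/J and B6 sham lungs (5 of 9), and the 12 glucocorticoid responsive genes had means of 10.77 to 11.16 in A/J sham lungs and 10.61 to 10.74 in B6 sham lungs at 16 weeks. The part of either list in the Npr3 difference was not tested. Between the lungs given fume, A/J exceeded B6 by 0.79 under GMA-MS and by 0.93 under GMA-SS at 4 weeks, and by 0.88 under GMA-MS and by 0.47 under GMA-SS at 16 weeks.

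Car4, at chr11:84957754-84966054, was the member whose 4-week lungs split by strain without overlap. The 12 A/J lungs of all exposures had a lowest, median and highest level of 12.96, 13.19 and 13.33, and the 12 B6 lungs had 12.65, 12.81 and 12.88. Car4 levels in sham lungs were 12.96, 13.20, 13.11 and 13.17 in A/J and 12.82, 12.80, 12.70 and 12.86 in B6, a difference of 0.31 ± 0.06 or 1.24-fold (adjusted p = 0.00102 in limma). At 16 weeks they were 12.80, 12.81, 12.57 and 12.60 in A/J sham lungs and 12.58, 12.42, 12.13 and 12.41 in B6 sham lungs. These ranges met at one B6 lung, and the difference was again 0.31, with an SE of 0.09 and an adjusted p of 0.0158. Without A/J sham replicate 1 or 2 or B6 sham replicate 3, the 16-week adjusted p of Car4 was 0.0542, 0.0558 or 0.0774. Red cell markers also gave a higher signal in A/J. The mean of 4 detected markers of an 8-gene erythroid list was 12.89 to 13.26 in A/J sham lungs and 11.33 to 11.89 in B6 sham lungs at 16 weeks, also apart at 4 weeks, and its part in the Car4 difference was not tested.

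Among the junction and Tie genes, 3 of 4 were called between the strains at 16 weeks, against 27.7% of all genes. At 4 weeks, where 18.9% of all genes were called and 32.2% with the beadchip block, limma called 0 of 4 in either fit. Of the 4, 0 had an unadjusted p under 0.05. Pecam1, at chr11:106654213-106715281, had levels of 12.74, 12.74, 12.67 and 12.91 in A/J sham lungs and 12.57, 12.19, 12.53 and 12.48 in B6 sham lungs. These did not overlap, and the difference was 0.32 ± 0.10 (adjusted p = 0.0227 in limma). Tie1, at chr4:118471191-118489849, had 9.80, 9.81, 9.85 and 10.09 in A/J sham lungs and 9.50, 9.59, 9.62 and 9.58 in B6 sham lungs. Tie1 was also apart, by 0.31 ± 0.08 (adjusted p = 0.00357 in limma), and the gap was 0.34 under GMA-MS and 0.21 under GMA-SS. Tek, at chr4:94739086-94874976, had 12.61, 12.67, 12.23 and 12.33 in A/J sham lungs and 11.96, 12.39, 12.06 and 12.20 in B6 sham lungs. Its groups overlapped and the difference was 0.31 ± 0.10 (adjusted p = 0.0251 in limma). Platelet markers, which go with Pecam1 in blood, were at 8.80 to 9.05 in A/J sham lungs and 9.27 to 9.82 in B6 sham lungs (mean of 5 detected of 6). Their part in the Pecam1 difference was not tested. Pecam1, Tie1 and Tek were each higher in the A/J sham lung on 4 of 4 beadchips. The calls of Pecam1 and Tek each rested on single lungs. Pecam1 had an adjusted p of 0.103 without B6 sham replicate 2 and 0.0821 without A/J sham replicate 4, and Tek had 0.0893 and 0.104 without A/J sham replicate 1 or 2 and 0.103 and 0.0704 without B6 sham replicate 1 or 3.

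At 4 weeks the same 3 genes differed by 0.12 ± 0.21 (Pecam1), 0.17 ± 0.29 (Tie1) and 0.14 ± 0.09 (Tek), none of them called. Cdh5, at chr8:104101613-104144504, averaged 13.85 ± 0.11 in A/J sham lungs and 13.89 ± 0.18 in B6 sham lungs at 4 weeks, and 13.15 ± 0.07 and 13.03 ± 0.12 in A/J and B6 sham lungs at 16 weeks (SD, n = 4), neither called. The A/J sham lungs all lay below the B6 sham lungs for Kank3 at 4 weeks, a difference of -0.27 ± 0.10 that missed the threshold (adjusted p = 0.0746 in limma), and it differed by -0.01 ± 0.10 at 16 weeks. Hspa12b, Klf2 and Klf4 were not called between the strains at either time, with differences between -0.20 and 0.12.

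Other endothelial genes were called between the strains in both directions. Of the 38 other endothelial markers tested, 5 were called higher and 10 lower in A/J sham lungs at 4 weeks, with a median difference of 0.00, against 9.14% of all genes called higher and 9.81% lower. At 16 weeks 8 were called higher and 10 lower, with a median of 0.01, against 14.8% of all genes higher and 12.9% lower. Ly6c1, a surface protein of capillary endothelium, was higher in A/J by 0.68 and 0.63 at the 2 times, and Tmem100, which acts downstream of ALK1 signalling, by 0.53 and 0.46. Vwf, the clotting protein stored in endothelium of larger vessels, differed by -0.61 and -0.66, Egfl7, a secreted vessel protein, by -0.56 and -0.57, and Clec14a, a surface lectin-like protein, by -0.92 and -0.57. Nos3, the endothelial nitric oxide synthase and a known target of Klf2, was lower in A/J sham lungs, with differences of -0.25 (adjusted p = 0.0172 in limma) and -0.17 (adjusted p = 0.019). Among the partners of Tie1 and Tek, the ligand Angpt2 was lower in A/J at 16 weeks, with a difference of -0.52 (adjusted p = 0.000324 in limma), with a difference of -0.08 at 4 weeks that was not called. Svep1, an extracellular protein known to bind Tie1, was higher by 0.38 at 16 weeks, and Dok2, an adaptor of Tek, by 0.34 and 0.41 at 4 and 16 weeks. The ligand Angpt1 and the phosphatase Ptprb, which acts on Tek, were not called at either time. The hormone Nppa and the receptor Npr2 of the natriuretic peptide pathway were not called, nor were Kank1 and Kank2, whereas Kank4 was lower in A/J, with differences of -0.77 and -0.60. Nppc, Npr1 and Hspa12a did not pass the detection filter and were not tested.

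**Figure D1:**
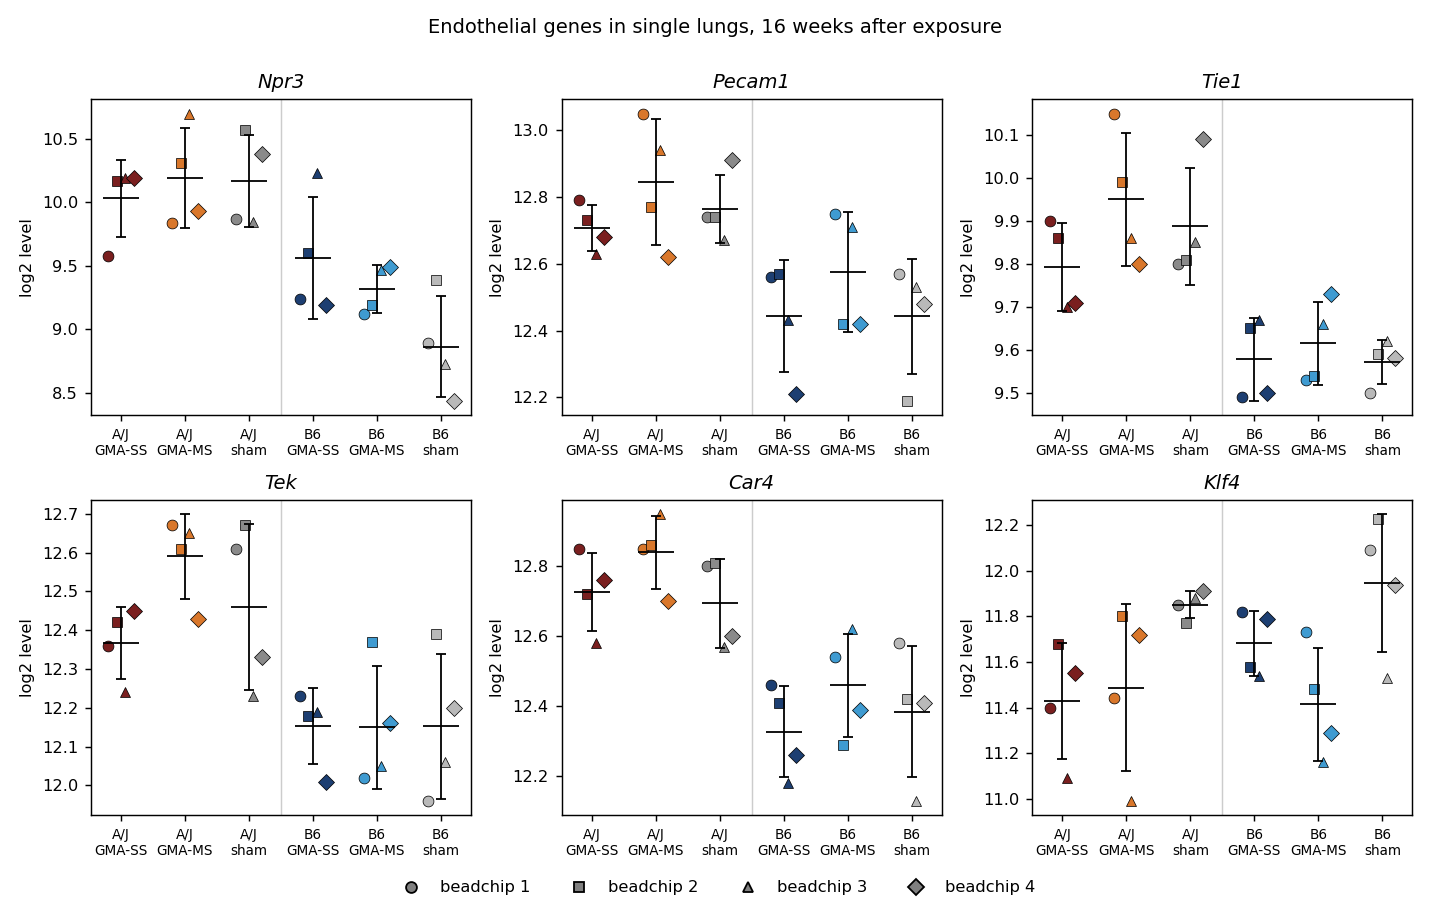
Levels at 16 weeks of Npr3, Pecam1, Tie1, Tek, Car4 and Klf4 in single lungs (log2 intensity on the y axis, each gene on its own scale), for GMA-SS, GMA-MS and sham lungs of A/J and then of B6. Each point is 1 lung, its shape names the beadchip, and the bars give the mean ± SD of 4 lungs. The A/J sham lungs of Npr3, Pecam1 and Tie1 lie above all B6 sham lungs.

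Each fume was then set against the sham lungs of its strain and time. Under GMA-MS, A/J lungs had more Kank3 and Hspa12b transcript at 4 weeks, and these were the calls among the 10 genes in all 8 fume against sham comparisons. These 2 genes were known to be called in this comparison when the 10 were chosen, so their count of 2 of 10, against 0.196% of all genes called, is a description only.

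Kank3, at chr17:33810523-33822920, had levels of 11.02, 10.48, 10.78 and 10.94 in A/J GMA-MS lungs and 10.24, 10.40, 10.35 and 10.04 in A/J sham lungs at 4 weeks. The groups did not overlap, although the lowest GMA-MS lung, on beadchip 2, stood close to the highest sham lung. The difference was 0.55 ± 0.10 (SE, n = 4 per group), or 1.47-fold (adjusted p = 0.0209 in limma). In A/J GMA-SS lungs the levels were 10.35, 10.46, 10.35 and 10.67, which overlapped both, with a difference from sham of 0.20 ± 0.10 (adjusted p = 1.00 in limma). B6 GMA-MS lungs had 10.58, 10.69, 10.84 and 10.77 and B6 sham lungs had 10.67, 10.47, 10.47 and 10.50, which overlapped (difference 0.19 ± 0.10, adjusted p = 1.00 in limma). The 4 differences of 16 weeks lay between -0.04 and 0.12.

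Hspa12b, at chr2:131127412-131145985, had levels of 12.06, 11.76, 11.89 and 11.57 in A/J GMA-MS lungs and 11.24, 11.42, 11.24 and 11.23 in A/J sham lungs at 4 weeks. All GMA-MS lungs were above all sham lungs, and the difference was 0.54 ± 0.11, or 1.45-fold (adjusted p = 0.0318 in limma). The other 3 fume groups of that time were also higher than their shams without a call. A/J GMA-SS lungs had 11.42, 11.75, 11.73 and 11.80, a difference from sham of 0.39 (adjusted p = 0.22 in limma). B6 GMA-MS lungs had 11.71, 11.95, 11.93 and 11.75, all above the B6 sham lungs at 11.66, 11.19, 11.41 and 11.53, and also differed from sham by 0.39 (adjusted p = 0.367 in limma). B6 GMA-SS lungs differed from B6 sham by 0.24 (adjusted p = 1.00 in limma). Hspa12b differences at 16 weeks lay between -0.05 and 0.15, none called.

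The calls of Kank3 and Hspa12b in A/J GMA-MS lungs depended on the fit. With only the 8 arrays of the compared groups the adjusted p was 0.44 for Kank3 and 0.267 for Hspa12b, and each gene lost its call in 6 of 8 fits that left out 1 lung. A/J GMA-MS and A/J sham lungs overlapped in the mean level of each of the 17 other gene lists at 4 weeks. The 38 other endothelial markers had a mean level of 12.34 to 12.41 in A/J GMA-MS lungs (mean 12.37) and 12.19 to 12.36 in A/J sham lungs (mean 12.31). The 12 glucocorticoid responsive genes had 11.16 to 11.74 (mean 11.45) in A/J GMA-MS lungs and 10.99 to 11.60 (mean 11.22) in A/J sham lungs. Overlap of 4 lungs with 4 does not show that a list was unchanged, and the part of these lists in the Kank3 and Hspa12b differences was not tested.

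The proximal promoters of these 2 genes are shown because Klf2 and Klf4, described next, belong to a family that binds CACCC boxes. The 250 bases before each start site were taken from RefSeq on GRCm38.p6, in the direction of transcription, with CACCC on either strand (GGGTG where it lies on the other strand) in capitals. Kank3 is chr17:33810273-33810522, plus strand, and Hspa12b is chr2:131127162-131127411, plus strand.
Kank3: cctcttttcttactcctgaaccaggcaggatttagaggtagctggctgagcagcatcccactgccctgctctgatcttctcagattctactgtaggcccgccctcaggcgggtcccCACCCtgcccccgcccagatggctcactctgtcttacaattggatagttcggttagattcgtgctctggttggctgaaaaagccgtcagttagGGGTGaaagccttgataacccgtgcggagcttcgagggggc
Hspa12b: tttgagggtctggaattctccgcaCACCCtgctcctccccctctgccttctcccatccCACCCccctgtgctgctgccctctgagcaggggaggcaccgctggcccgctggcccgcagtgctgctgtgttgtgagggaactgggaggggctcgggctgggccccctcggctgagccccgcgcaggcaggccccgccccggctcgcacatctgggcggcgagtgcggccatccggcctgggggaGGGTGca
Kank3 had 2 matches and Hspa12b had 3. In the same window Tie1 also had 2, Npr3, Tek, Car4 and Klf2 had 1 each, and Klf4 had 0. Of 27025 mouse promoters of this length, 51.3% held at least 1 match, 20.7% at least 2 and 6.73% at least 3. A match in these letters is not a measured binding site.

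**Figure D2:**
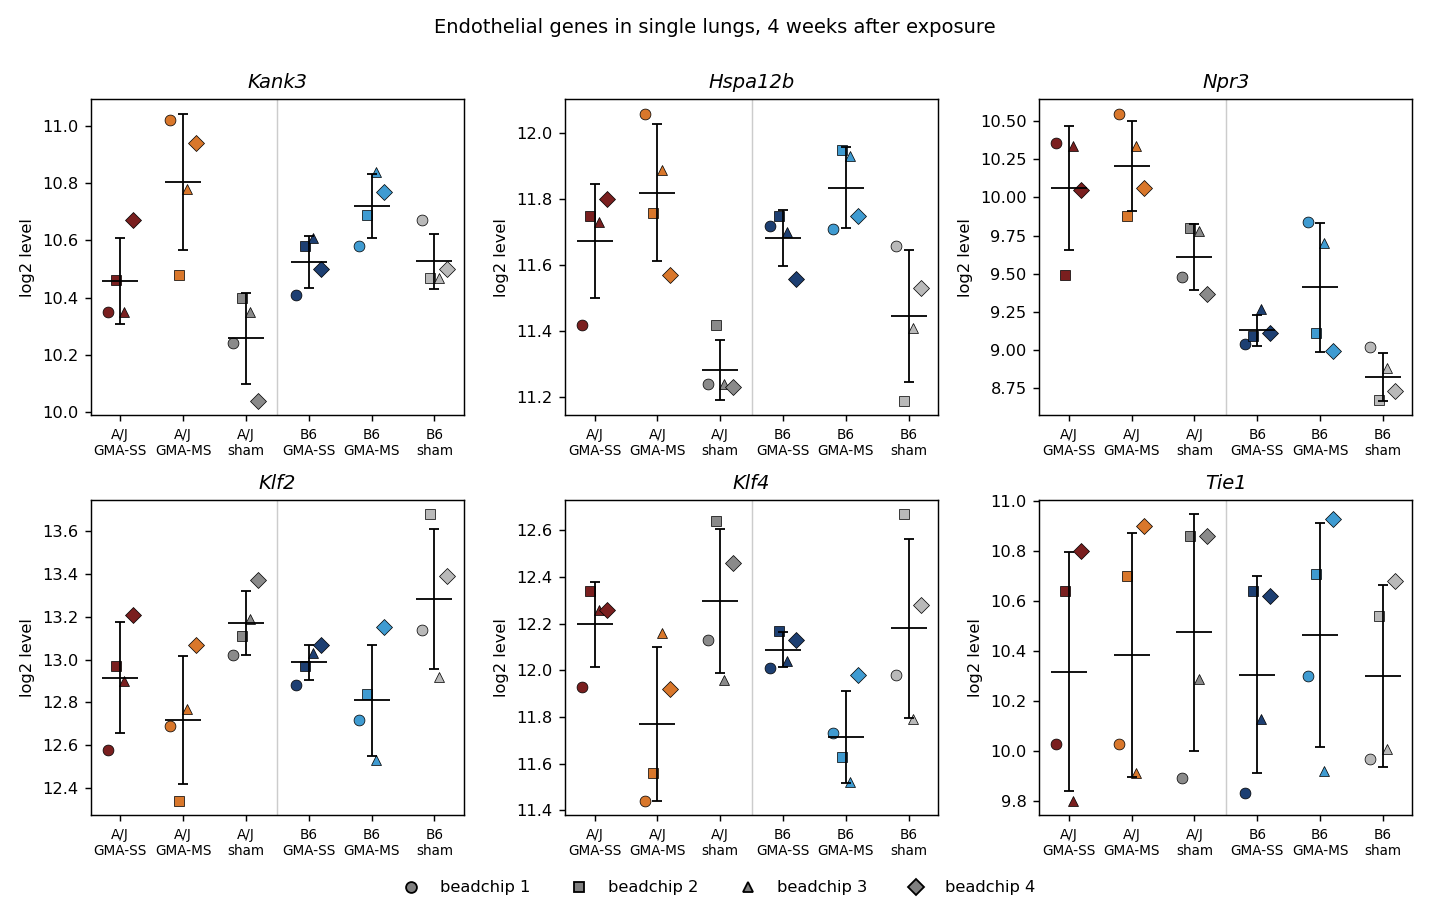
Levels at 4 weeks of Kank3, Hspa12b, Npr3, Klf2, Klf4 and Tie1 in single lungs (log2 intensity on the y axis, each gene on its own scale), for GMA-SS, GMA-MS and sham lungs of A/J and then of B6. Each point is 1 lung, its shape names the beadchip, and the bars give the mean ± SD of 4 lungs. A/J GMA-MS lungs lie above A/J sham lungs for Kank3 and Hspa12b, and Tie1 is split by beadchip in every group.

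Npr3 had a higher mean under both fumes in both strains at 4 weeks, with no difference called. A/J GMA-MS lungs had 10.55, 9.88, 10.34 and 10.06 and A/J sham lungs had 9.48, 9.80, 9.78 and 9.37, which did not overlap. The difference was 0.60 ± 0.19, with an adjusted p of 0.318 in limma, and with the beadchip as a replicate block it passed the threshold at an adjusted p of 0.049. A/J GMA-SS lungs had 10.36, 9.49, 10.34 and 10.05 and overlapped sham (difference 0.45 ± 0.19). B6 GMA-MS lungs had 9.84, 9.11, 9.70 and 8.99, higher than the B6 sham lung of the same beadchip in 4 of 4 pairs (difference 0.58 ± 0.19, adjusted p = 0.761 in limma), and B6 GMA-SS lungs had 9.04, 9.09, 9.27 and 9.11, all above B6 sham (difference 0.30 ± 0.19). At 16 weeks A/J lungs under GMA-SS had 9.58, 10.17, 10.19 and 10.19 and differed from A/J sham, with a mean of 10.17, by -0.13 ± 0.24. The negative sign rested on replicate 1, at 9.58. B6 lungs under GMA-SS had 9.24, 9.60, 10.23 and 9.19 and differed from B6 sham by 0.70 ± 0.24. The 16-week means under GMA-MS were 10.19 in A/J, against 10.17 in sham, and 9.32 in B6, against 8.86 in sham. The difference between the strains in the GMA-SS effect was -0.84 ± 0.34, with an unadjusted p of 0.0216 and an adjusted p of 0.999 in limma.

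Klf2 and Klf4 had negative estimates in all 8 fume against sham comparisons, and neither was called in any of them. Klf2, at chr8:72319062-72321654, had 12.69, 12.34, 12.77 and 13.07 in A/J GMA-MS lungs and 13.02, 13.11, 13.19 and 13.37 in A/J sham lungs at 4 weeks. The fume lung was the lower of the 2 on 4 of 4 beadchips, the ranges overlapped, and the difference was -0.46 ± 0.16 (adjusted p = 0.413 in limma). B6 GMA-MS lungs had 12.72, 12.84, 12.53 and 13.15 and B6 sham lungs had 13.14, 13.68, 12.92 and 13.39, again lower on 4 of 4 beadchips (difference -0.47 ± 0.16, adjusted p = 0.85 in limma). The GMA-SS differences at 4 weeks were -0.26 in A/J and -0.29 in B6. The Klf2 differences at 16 weeks were -0.18 and -0.15 in A/J under GMA-MS and GMA-SS, and -0.32 and -0.30 in B6 under GMA-MS and GMA-SS.

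Klf4, at chr4:55527137-55532475, had levels on its main probe of 11.44, 11.56, 12.16 and 11.92 in A/J GMA-MS lungs and 12.13, 12.64, 11.96 and 12.46 in A/J sham lungs at 4 weeks. The ranges overlapped through beadchip 3, and the difference was -0.53 ± 0.18 (adjusted p = 0.364 in limma). In B6 the GMA-MS difference was -0.46 ± 0.18, and the GMA-SS differences were -0.10 in A/J and -0.09 in B6. At 16 weeks A/J GMA-SS lungs had 11.40, 11.68, 11.09 and 11.55, all below the A/J sham lungs at 11.85, 11.77, 11.88 and 11.91, a difference of -0.42 ± 0.16 (adjusted p = 0.684 in limma). The largest Klf4 estimate of that time was in B6 GMA-MS lungs, -0.53 ± 0.16 (adjusted p = 0.244 in limma).

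The 3 Klf4 probes did not have the same sign in B6 at 4 weeks. The main probe and a second probe had negative estimates in all 8 comparisons, and the second probe reached -0.59 ± 0.12 in A/J GMA-SS lungs at 16 weeks (adjusted p = 0.064 in limma, with all probes as separate features). The third probe also had negative estimates in A/J, between -0.33 and -0.14, but its differences in B6 at 4 weeks were 0.05 under GMA-MS and 0.07 under GMA-SS. It is the Klf4 probe that was not detected on every array.

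The promoters of Klf2 and Klf4 are shown because a MEF2 site in the Klf2 promoter is known to carry its response to flow. They were taken as above, from chr8:72318812-72319061, plus strand, for Klf2 and from chr4:55532476-55532725, minus strand, for Klf4, with matches to the MEF2 consensus in capitals.
Klf2: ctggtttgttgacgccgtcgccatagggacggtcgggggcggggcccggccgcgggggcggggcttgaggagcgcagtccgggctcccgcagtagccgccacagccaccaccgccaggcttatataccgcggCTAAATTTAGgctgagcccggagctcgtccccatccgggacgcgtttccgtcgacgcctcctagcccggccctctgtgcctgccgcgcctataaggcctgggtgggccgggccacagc
Klf4: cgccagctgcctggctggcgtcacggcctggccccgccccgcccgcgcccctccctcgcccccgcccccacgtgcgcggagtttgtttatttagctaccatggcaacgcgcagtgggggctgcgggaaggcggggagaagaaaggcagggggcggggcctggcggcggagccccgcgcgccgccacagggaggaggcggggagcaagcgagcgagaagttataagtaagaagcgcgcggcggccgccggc
Klf2 had 1 match, with 108 bases between it and the start, and Klf4 had none in this window. The consensus was found in 3.01% of 27025 promoters. RefSeq promoters of 8 of the 10 genes were at hand.

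A further 12 genes that act with or downstream of Klf2 and Klf4, among them Nos3, Thbd, Vcam1, Icam1, Edn1 and Mef2c, were tested, and 0 of 12 were called by limma in any fume against sham comparison, with or without the beadchip block, with 0 to 4 at an unadjusted p under 0.05. Their median difference lay between 0.00 and 0.06 on the log2 scale. Thbd, thrombomodulin, a known Klf2 target that keeps blood from clotting, differed by 0.26 in A/J GMA-MS lungs at 4 weeks (adjusted p = 0.503 in limma). Of 14 immediate early genes, which respond within minutes to stress and handling, 5 were called lower in B6 GMA-MS lungs at 4 weeks (median -0.47) and 3 were called lower in B6 GMA-SS lungs (median -0.40), against 0.0806% and 0.046% of all genes called lower under GMA-MS and GMA-SS, while 0 of 14 were called under GMA-MS in A/J (median -0.09, 2 at an unadjusted p under 0.05). The mean level of these 14 genes at 4 weeks was 10.53 to 10.62 in A/J GMA-SS lungs, below all A/J sham lungs at 10.64 to 10.81. The part of these genes in the Klf2 and Klf4 estimates of either strain was not tested. Over the 24 lungs of a time, after removal of the group means, the r of Klf2 and Klf4 with the mean of this list was 0.23 and 0.11 at 4 weeks and 0.24 and -0.09 at 16 weeks, none of which passed (unadjusted permutation p between 0.394 and 0.752).

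The junction proteins, Tie receptors and Car4 had no call against sham. At 4 weeks the 4 differences were between -0.03 and 0.21 for Pecam1, -0.05 and 0.02 for Cdh5, -0.16 and 0.17 for Tie1, -0.09 and 0.05 for Tek and -0.03 and 0.14 for Car4, and none was called. The standard errors of Pecam1 (0.21) and Tie1 (0.29) were wide at this time, when most of their spread within groups lay between beadchips. Paired by beadchip, Pecam1 was higher under GMA-MS than in sham lungs on 4 of 4 beadchips in A/J (difference 0.19) and on 4 of 4 in B6 (difference 0.21). With the beadchip as a block the SE of Pecam1 was 0.07, and its adjusted p in limma was 0.206 in A/J and 0.304 in B6. Car4 had the smallest error (0.06), and A/J GMA-MS lungs lay between 13.21 and 13.33, just above A/J sham lungs between 12.96 and 13.20 (difference 0.14, adjusted p = 0.622 in limma). Differences of these 5 genes at 16 weeks ranged between -0.11 and 0.15. The largest negative one was Cdh5 in A/J GMA-SS lungs, which had 13.05, 13.06, 12.98 and 13.05, all below the A/J sham lungs at 13.17, 13.25, 13.09 and 13.10 (difference -0.11 ± 0.07, adjusted p = 0.973 in limma).

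**Figure D3:**
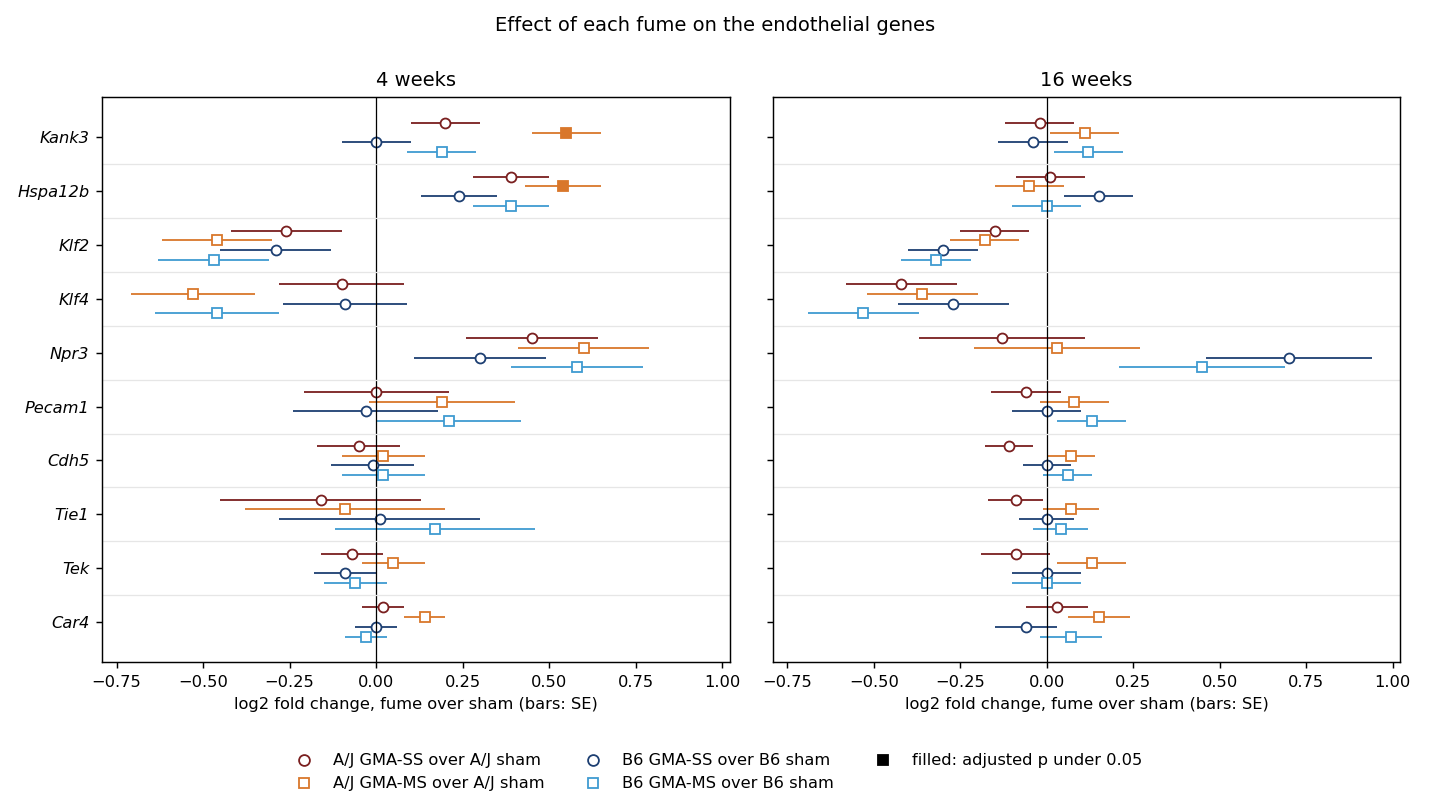
Difference of each fume group from the sham group of its strain for the 10 genes at 4 and 16 weeks (log2 fold change on the x axis, bars are SE, 4 lungs per group). A filled symbol marks an adjusted p under 0.05, which only Kank3 and Hspa12b reached, in A/J GMA-MS lungs at 4 weeks. Klf2 and Klf4 lie left of 0 in every comparison.

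In the other 7 fume against sham comparisons 0 of 10 genes were called by limma. The 10 genes were chosen with earlier results of these data known. Their counts at an unadjusted p, here and in the next paragraph, are therefore a description only. The paper lists Klf2, Klf4 and Npr3 among genes changed by GMA-MS at 4 weeks in both strains. At 4 weeks the share of all genes called was 0.23% in A/J under GMA-SS, 0.0806% in B6 under GMA-MS and 0.0806% in B6 under GMA-SS, and 2, 4 and 1 of the 10 genes had an unadjusted p under 0.05, against 434, 335 and 314 of all 8687 genes. At 16 weeks it was 0.023% in A/J under GMA-MS, 0.0344% in A/J under GMA-SS, 0.149% in B6 under GMA-MS and 0% in B6 under GMA-SS, and 1, 1, 2 and 2 of the 10 genes had an unadjusted p under 0.05, against 734, 514, 823 and 356 of all 8710 genes. With the beadchip as a block, 0 of 10 were called in each of these 7. The blocked share of all genes at 4 weeks was 0.806% in A/J under GMA-SS, and 0.46% and 0.196% in B6 under GMA-MS and GMA-SS. At 16 weeks it was 0.0344% and 0.0459% in A/J under GMA-MS and GMA-SS, and 0.574% and 0% in B6 in that order. The 38 other endothelial markers also had 0 calls by limma in all 8 comparisons, with medians between -0.06 and 0.06 and 0 to 7 at an unadjusted p under 0.05. With the beadchip block 1 was called, in B6 under GMA-MS at 4 weeks.

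GMA-SS was set against GMA-MS within each strain, and the A/J and B6 effects of each fume were set against each other. None of the 10 genes was called by limma in these comparisons, with or without the beadchip block. With the block the share of all genes called was at most 0.344%, for the strain difference under GMA-MS at 16 weeks. At 4 weeks 0% of all genes were called for GMA-SS over GMA-MS in A/J and 0% in B6, 0.0345% for the strain difference in the GMA-MS effect and 0% for that in the GMA-SS effect, and 2, 1, 1 and 0 of the 10 genes had an unadjusted p under 0.05, against 524, 235, 401 and 153 of all genes. Kank3 had a lower mean under GMA-SS than under GMA-MS in A/J, a difference of -0.35 ± 0.10 (adjusted p = 0.504 in limma), and the A/J minus B6 difference in its GMA-MS effect was 0.36 ± 0.15 (adjusted p = 1.00). Klf4 had a higher mean under GMA-SS than under GMA-MS, by 0.43 ± 0.18 in A/J (adjusted p = 0.712 in limma) and by 0.37 ± 0.18 in B6 (adjusted p = 1.00). At 16 weeks the shares were 0% for GMA-SS over GMA-MS in A/J, 0.0574% for that in B6, 0.115% for the strain difference under GMA-MS and 0% for that under GMA-SS, and 3, 0, 0 and 1 of the 10 genes had an unadjusted p under 0.05, against 400, 456, 619 and 293 of all genes. The 3 were Cdh5, Tek and Tie1 in A/J, with -0.18, -0.22 and -0.16 (adjusted p = 0.927, 1.00 and 1.00 in limma), and the median of the 10 genes there was -0.13 against -0.10 for the 38 other endothelial markers and -0.015 for all genes. In the 5 of these comparisons and B6 GMA-SS over B6 sham at 16 weeks where 0 genes of all were called, 1 gene was called with the beadchip block.

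The 10 genes were then compared over single lungs, after the mean of each group had been removed from each gene. At 4 weeks the 45 pairs had a mean Pearson r of 0.20 (SD 0.379, range -0.606 to 0.926), with 32 pairs positive, against a mean of 0.00569 over all pairs of the 8687 genes and 0.0468 over pairs of the 38 other endothelial markers. The mean r at 16 weeks was 0.0806 (29 of 45 positive, range -0.674 to 0.695), against 0.0116 over all genes and 0.123 among the other endothelial markers. The median r of the 45 pairs was 0.262 at 4 weeks and 0.114 at 16 weeks, and 30.4% and 37.5% of all pairs of genes exceeded it. Pairs of opposite sign stood beside each other at both times. Between the 10 genes and the 38 other endothelial markers the mean r was 0.0607 at 4 weeks and 0.0618 at 16 weeks. With beadchip means removed as well, it was 0.138 and 0.0724.

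Beadchips ran through the 4-week pattern. The share of the spread within groups that lay between beadchips was 91.6% for Tie1, 90.1% for Pecam1 and 81.4% for Cdh5, against 2.96% for Kank3, 5.23% for Hspa12b, 5.40% for Tek and a median of 51.6% over all genes. The Tie1 lungs of beadchips 1 and 3 lay 0.37 below their group means and those of beadchips 2 and 4 lay 0.31 and 0.42 above. In A/J sham lungs, for instance, Tie1 was 9.89, 10.86, 10.29 and 10.86 on beadchips 1 to 4. At 16 weeks the share was 0.421% for Tie1 and 30.6% at the median over all genes. With beadchip means removed as well, the mean r of the 45 pairs was 0.198 at 4 weeks (36 positive), against 0.12 among the other endothelial markers and 0.0134 over all genes. At 16 weeks it was 0.0964 (27 positive), against 0.133 and 0.0163. The median r of the 45 pairs was then 0.206 at 4 weeks and 0.114 at 16 weeks, and 28.0% and 37.7% of all pairs of genes exceeded it.

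Of 90 pairs tested over both times by permuting lungs within groups, 6 passed an adjusted p of 0.05 at 4 weeks and 2 at 16 weeks, all positive. The permutations did not keep lungs on their beadchip, so these p-values take no account of the spread that beadchips share. No p was computed for the r with beadchip means removed. Pecam1 and Tie1 were among them, but their lungs fell into separate clusters, beadchips 1 and 3 against 2 and 4, so the relation is given within beadchips, where r was 0.27 to 0.83 over 6 lungs each, and with beadchip means removed, where it was 0.66. Cdh5 and Tie1 had r = 0.77 (rho = 0.74, permutation p = 9e-05, adjusted 0.00405), but only 0.21 with beadchip means removed and -0.70 to 0.64 within beadchips, so the relation did not hold within them. The same was true of Pecam1 and Car4 (r = 0.67, adjusted permutation p = 0.0378, beadchip-centred r = 0.14), and Pecam1 with Cdh5 (r = 0.62, adjusted permutation p = 0.0477) and Klf2 with Cdh5 (r = 0.68, adjusted permutation p = 0.0428) each had a beadchip-centred r of 0.33. Npr3 ran against Pecam1 and Tie1 in the pooled lungs, with r = -0.57 and -0.61, and with them after beadchip means were removed, with r = 0.44 and 0.26.

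The relation of Klf2 to Klf4 was also positive within each beadchip. It had r = 0.70 at 4 weeks (rho = 0.73, permutation p = 0.00252, adjusted 0.0378) and r = 0.63 without the 2 lungs farthest from the Klf2 median, 0.63 with beadchip means removed and 0.21 to 0.78 within beadchips. By strain, the 4-week r was 0.49 over A/J lungs and 0.94 over B6 lungs. For 16-week lungs r was 0.39 (adjusted permutation p = 0.369). The 2 pairs that passed at 16 weeks were others. Kank3 and Npr3 had r = 0.69 (rho = 0.64, permutation p = 0.00165, adjusted 0.0371), 0.66 without the 2 farthest lungs, 0.68 with beadchip means removed and 0.38 to 0.82 within beadchips. Cdh5 and Tek had r = 0.70 (rho = 0.64, permutation p = 0.00125, adjusted 0.0371), 0.64 without the 2 farthest lungs, 0.65 with beadchip means removed and 0.59 to 0.72 within beadchips. Kank3 and Hspa12b, the 2 genes called under GMA-MS, had r = 0.43 at 4 weeks (adjusted permutation p = 0.342) and 0.27 at 16 weeks, and the receptors Tie1 and Tek had 0.19 and 0.04. Hspa12b and Klf4 had the most negative r of 16 weeks, -0.67 (adjusted permutation p = 0.056). By strain it was -0.97 over A/J lungs and -0.12 over B6 lungs. The rho of this pair was -0.49 (adjusted permutation p = 0.164). Its r was -0.51 without the 2 lungs farthest from the Hspa12b median, -0.60 with beadchip means removed and -0.93 to 0.69 within beadchips.

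**Figure D4:**
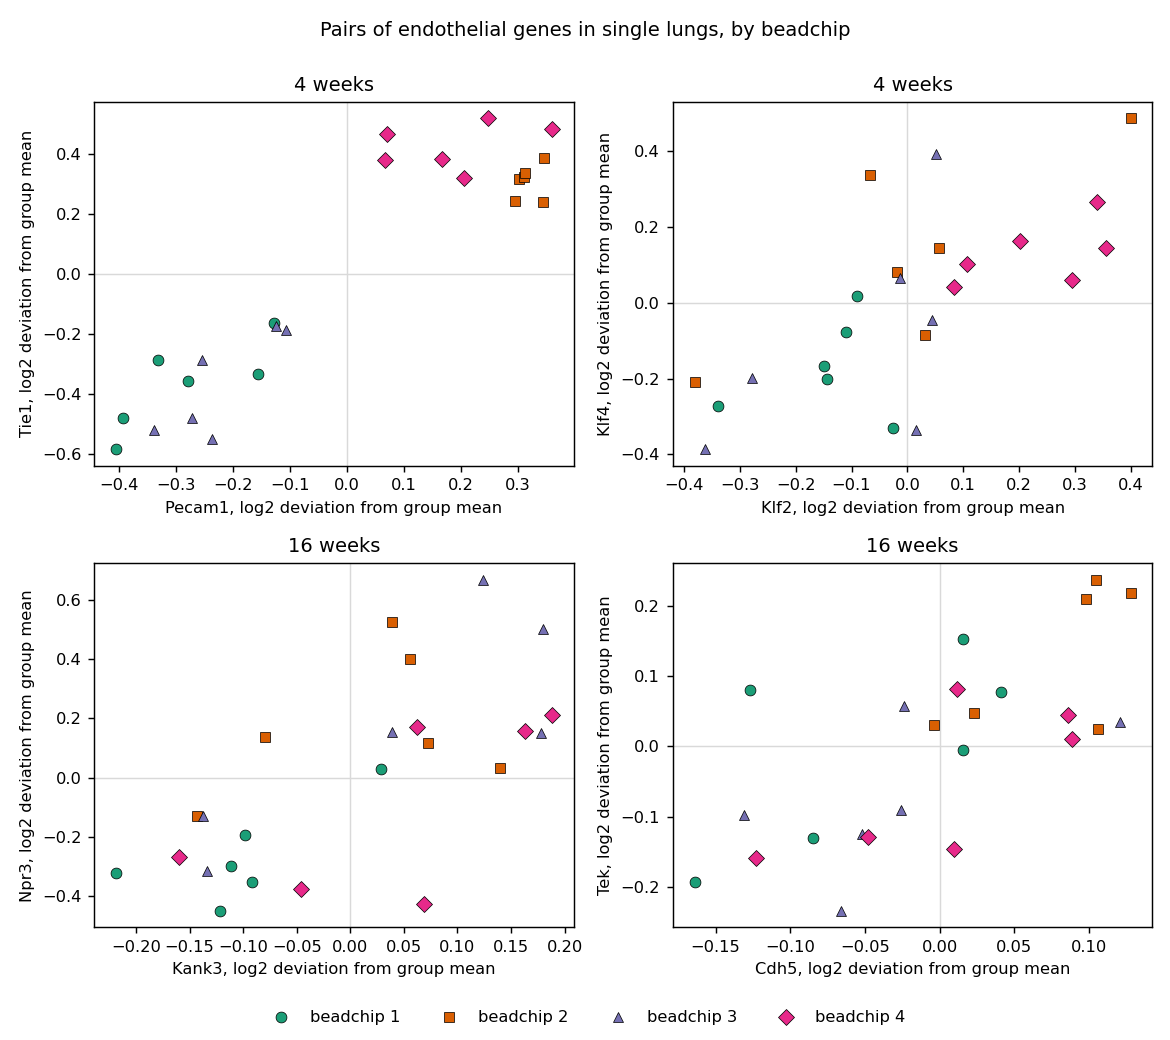
Pairs of genes in single lungs, as log2 deviation from the group mean on both axes, 24 lungs per panel, with colour and shape for the beadchip. Pecam1 and Tie1 at 4 weeks fall into a low cluster (beadchips 1 and 3) and a high cluster (beadchips 2 and 4), while beadchips mix along the trend of Kank3 with Npr3 and of Cdh5 with Tek at 16 weeks.

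**Figure D5:**
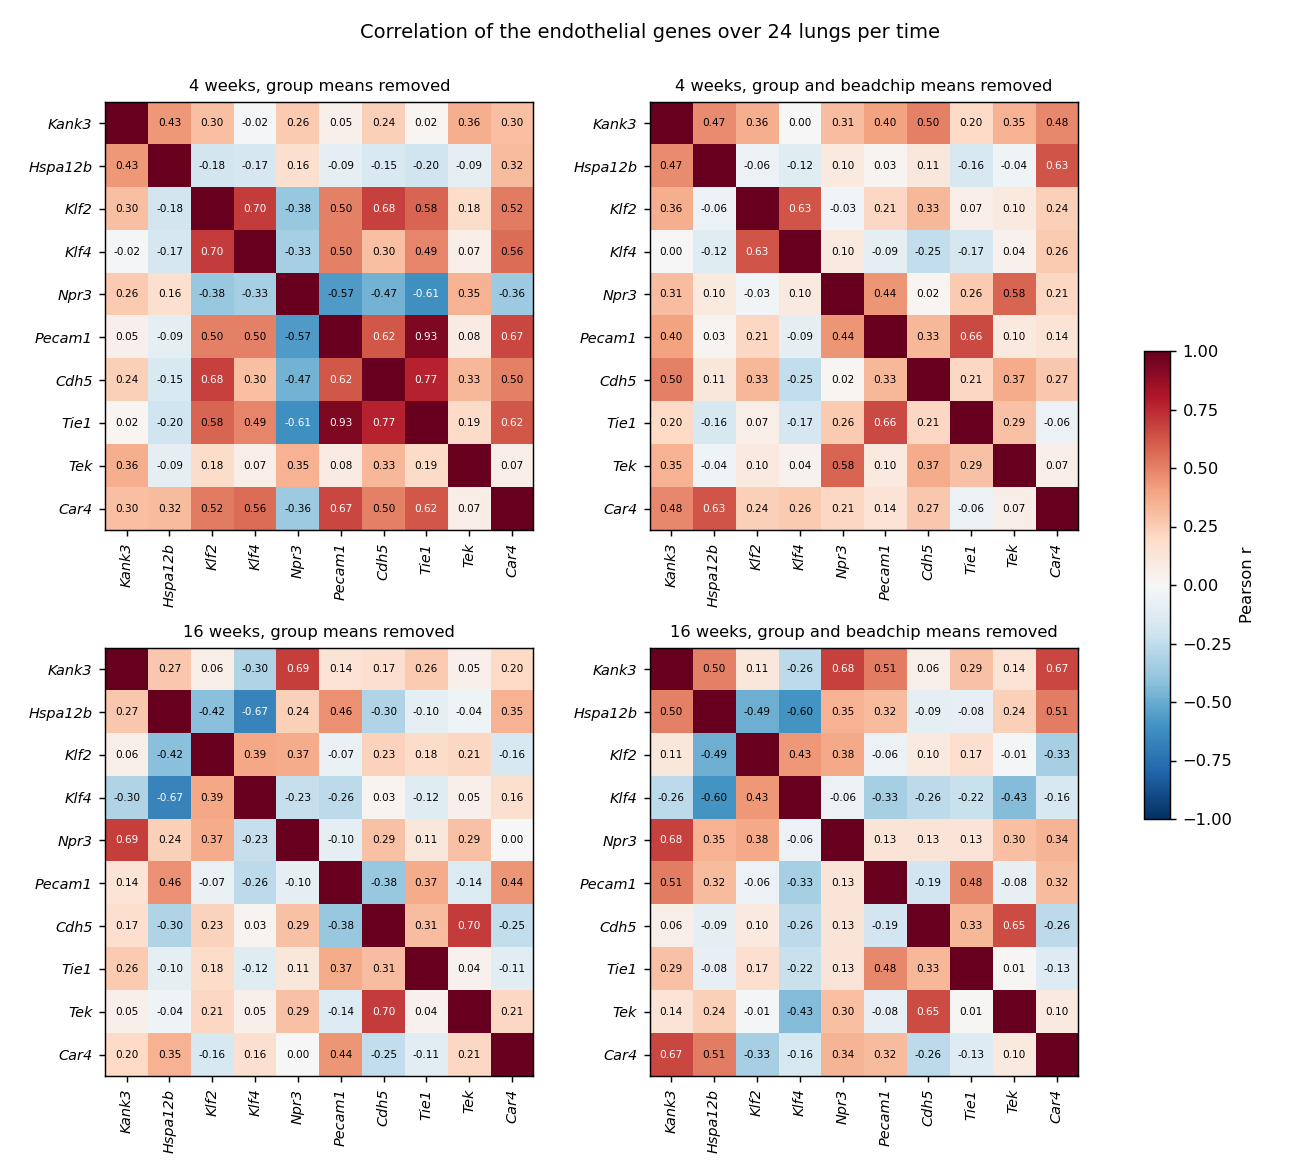
Pearson r of each pair of the 10 genes over 24 lungs, at 4 weeks (top) and 16 weeks (bottom), with group means removed (left) and with group and beadchip means removed (right). Red is positive and blue negative, and the 4-week block of Pecam1, Cdh5 and Tie1 on the left fades on the right.

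Each gene was also set against the mean of 17 other lists over the same lungs, 340 relations in all, of which 17 passed an adjusted permutation p of 0.05 at 4 weeks and 2 at 16 weeks. At 4 weeks 16 of the 17 were of genes other than Npr3 and positive, 13 of them of Pecam1, Tie1 or Cdh5, the genes with most of their spread between beadchips. They included Pecam1 and Tie1 with pericyte and smooth muscle markers (adjusted permutation p = 0.0017 and 0.00204), and Tie1 and Cdh5 with alveolar and airway epithelial markers (adjusted permutation p = 0.00291 and 0.00204). Pooled r was 0.67 to 0.91 in these 16, but with beadchip means removed it was -0.42 to 0.42, so these relations lay mainly between beadchips. Tek had r = 0.72 with platelet markers at 16 weeks (adjusted permutation p = 0.0222), and 0.57 with beadchip means removed. At 16 weeks Npr3 followed 12 glucocorticoid responsive genes, such as Fkbp5, Tsc22d3 and Zbtb16, with r = 0.72 and rho = 0.82 (permutation p = 0.00053, adjusted 0.0164). It was 0.73 without the 2 farthest lungs and 0.72 with beadchip means removed. At 4 weeks that r was 0.20, and 0.54 with beadchip means removed. Kank3 had r = 0.61 with the same list at 16 weeks (adjusted permutation p = 0.06) and 0.52 at 4 weeks (adjusted permutation p = 0.268). At 4 weeks Npr3 ran against 8 detected leukocyte markers, with r = -0.72 and rho = -0.70 (adjusted permutation p = 0.0298) and -0.56 with beadchip means removed, and at 16 weeks r was -0.05. Klf4 had r = -0.14 and -0.24 with the leukocyte list at 4 and 16 weeks, and -0.67 at both times once beadchip means were removed.

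The genes whose pattern was most like the mean of the 10 standardized genes at 4 weeks were Klf7, Klf13 and Sorbs3 (r = 0.86 each), Shank3 (0.85), Snrk and Nek9 (0.84 each) over 24 lungs. With beadchip means removed these 6 had r between 0.69 and 0.78. At 16 weeks they were Tmem150a (0.77), Pim3 (0.74), Cbx8 (0.73), Cttn and Mkrn1 (0.72 each) and Grpel2 (0.71). Kank3 was most like Efnb1 (0.74), Cilk1 (0.73) and Dctn3 (0.72) at 4 weeks and Pxdc1 (0.75), Ripor1 and Adap2 (0.74 each) at 16 weeks. Klf2 was most like Zfp629 (0.82), Slc25a25 (0.81) and Cyth1 (0.80) at 4 weeks and Igf2r (0.75), Csrnp1 and Rpp21 (0.73 each) at 16 weeks. These genes were picked for their r, which is therefore a description.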

How the data were processed

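Total RNA of 48 lungs, 4 in each of 12 groups, was hybridised to Illumina MouseRef-8 v1.1 beadchips. The authors deposited a BeadStudio export with the mean intensity, the detection p-value and the bead number of each probe, and log2 values that the authors made in lumi by forcing the background positive, a variance-stabilizing transform and robust spline normalization, which were used as an alternative. Here 24617 rows gave 24613 probes, of which 20984 had 1 gene symbol after an update through Entrez identifiers to RefSeq, 1 had several and 3628 had none. The arrays of each time point were background corrected and quantile normalized with neqc (limma 3.58.1, R 4.3.3, offset 16), with the level of negative controls estimated back out of the detection p-values. Probes were kept at a detection p under 0.01 on 4 or more arrays, and the brightest probe stood for its gene. A linear model of 6 groups was fitted per time point with limma and tested on simulated data, with Benjamini-Hochberg adjustment. The simulated arrays had independent noise and no beadchip effect, so that test does not cover the spread that beadchips share. Probes detected per array ranged between 9990 and 11567 and median beads per probe between 34 and 36. Precision is limited by having 4 arrays in a group.

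Correlations used deviations from the group means of 24 lungs, with 100000 permutations within groups (numpy 2.4.6, scipy 1.17.1). Lungs were permuted without regard to beadchip, for pairs of genes and for gene lists alike. In the labels a replicate number marks a beadchip. Arrays that shared a beadchip deviated together, with a mean correlation of 0.258 to 0.434 on the 4-week beadchips against -0.119 between beadchips, and of 0.0484 to 0.223 against -0.0459 at 16 weeks, so the beadchip was a replicate block in an alternative fit. Every member was named in the text. The 10 genes, the 17 other lists and the tests were chosen with earlier results of these data known. Nothing in the labels says more of the lungs than that they were separate samples, so p-values measure the spread between these samples. Promoters are RefSeq sequences of GRCm38.p6.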

Additional observations from a re-analysis of the deposited data

Results flagged for a closer look

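In 5 of 120 groups of 4 lungs a gene had 1 lung far from the other 3, where chance gives about 1 in 20 groups by Dixon's criterion. Npr3 was 9.58 in replicate 1 of the A/J GMA-SS lungs at 16 weeks, and 10.17 to 10.19 in the other 3. Cdh5 was 12.98 in replicate 3 of the same group, against 13.05 to 13.06. Hspa12b was 11.22 in replicate 2 of the B6 GMA-MS lungs at 16 weeks, below the others at 11.39 to 11.41, and 11.42 in replicate 2 of the A/J sham lungs at 4 weeks, above the others at 11.23 to 11.24. Kank3 was 10.67 in replicate 1 of the B6 sham lungs at 4 weeks, above the others at 10.47 to 10.50.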

How the results depend on the processing

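Each comparison was repeated under 9 other settings and without each lung in turn, and no result changed its direction among those called. For A/J GMA-MS over A/J sham at 4 weeks, 2 of 10 genes were called. Scaling to the median of probes detected on every array called 0, using only the compared arrays called 0, no filter on detection called 1 (Kank3), and leaving out 1 lung called between 0 and 2. For Kank3 the adjusted p in limma was 0.0502 with median scaling and between 0.00278 and 0.109 without 1 lung, where it lost its call without A/J GMA-MS replicate 1, 3 or 4 or A/J sham replicate 1, 3 or 4. For Hspa12b it was 0.129 with median scaling, 0.0577 with no filter and between 0.0174 and 0.147 without 1 lung, where it lost its call without A/J GMA-MS replicate 1, 2 or 3 or A/J sham replicate 1, 3 or 4. The replicate block, which pairs lungs by beadchip, called 3 genes there, adding Npr3 at an adjusted p of 0.049, and it changed no other call of the 10 genes. With the block 1.31% of all genes were called in A/J GMA-MS lungs at 4 weeks, against 0.196% without it. For the strains in sham lungs the block called 32.2% of all genes at 4 weeks and 32.8% at 16 weeks. Between the sham lungs of the strains, median scaling called 1 gene at 4 weeks (Npr3) in place of 2, and 2 genes at 16 weeks (Npr3 and Tie1) in place of 5, and leaving out 1 lung called between 3 and 6 at 16 weeks, the lowest without A/J sham replicate 1 or 2 or B6 sham replicate 3 and the highest, with Klf2, without B6 sham replicate 4. Tek had an adjusted p of 0.0971 there with only the compared arrays. With median scaling the median residual SD was 0.225 at 4 weeks and 0.154 at 16 weeks, against 0.142 and 0.107 with quantile normalization, and the median of all genes in A/J sham over B6 sham at 16 weeks was -0.125. The cause of these changes was not tested. Comparisons with 0 of 10 called had 0 under all settings run. The mean r of the 45 pairs ranged between 0.167 and 0.371 at 4 weeks and between 0.0204 and 0.109 at 16 weeks.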
